A study of Allium sativum with 42 samples.

Results

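The late-onset genes of bulb maturation are 28 garlic genes of the 58219 in the deposited table. Each had a mean of at least 10 FPKM in bulbs of both 222 and 227 days, and the lower of these 2 means was at least 4 times the highest mean of bulbs of 192, 197, 202, 207 and 212 days. FPKM is fragments per kilobase of transcript per M (mega) mapped fragments, a level that is set per gene length and per library depth. The members were chosen by their FPKM means at bulb ages of 192 to 212, 222 and 227 days, so levels at these ages are given as a description with no test, whereas bulbs of 217 days and the 6 other tissues played no part in the choice. Both limits bound: 10769 genes had a lower late mean of at least 10 FPKM, 264 genes had the 4-fold ratio at any level, and 28 had both.

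Garlic (Allium sativum), cultivar Ershuizao, was profiled by RNA-seq in 42 libraries, 3 in each of 14 groups. All samples came from this 1 cultivar, grown in the field, with no treatment named; bulbs were taken every 5 days at 192, 197, 202, 207, 212, 217, 222 and 227 days, a series that began ahead of bulb expansion and ended with it. Also sampled were buds of 10 days, flowers of 217 days, and leaves, pseudostems, garlic sprouts and roots of 212 days by their labels, although the growth protocol dates the tissue harvest to the day of the 217-day bulbs. Neither which parts of the inflorescence went into the flower libraries, nor whether replicates were separate plants or pools, is stated, so the tests measure the spread between libraries, which may be technical. The flower libraries are labelled flowers, but their titles open with QSLJ, which holds the LJ that opens the bulb titles. The meaning of these letters was not checked, and the flower label is used as given. The table pairs no gene ID with a name or product, so the tissue labels could not be checked against marker genes and the members are described by ID, length and level.

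A garlic bulb is a ring of cloves, each an axillary bud wrapped in a swollen storage leaf. Bulb expansion fills these leaves with fructan and storage protein, and maturation follows as the foliage dries and the cloves enter dormancy. A garlic inflorescence stands on a scape and in many cultivars carries bulbils, small aerial propagules, among its flowers. The pseudostem is the false stem of rolled leaf bases. In tissue RNA such as this, fewer cells of a type and less RNA per cell cannot be told apart.

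Depth, as whole reads recovered from the FPKM values, ran from 5.92 M to 35.4 M per library. Flower libraries averaged 26.6 M ± 3.39 (SD, n = 3), 217-day bulbs 18.9 M ± 5.29 and leaves, the shallowest group, 10.6 M ± 4.85. Several libraries stood apart, in the members or over all genes. Replicate 2 of the 227-day bulbs had correlations of 0.899 and 0.902 across genes, on log2(FPKM + 1), with the 2 other libraries of its age, which correlated at 0.983 with each other, and it was the lowest of its age in 14 members. Replicate 1 of the 222-day bulbs was the highest of its age in 19 members, with a median of 1.79 times the mean of the 2 others. Replicate 3 of the 217-day bulbs was the highest of its age in 17 members and more than 2 times both others in 12.

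The members spanned almost 4 orders of magnitude. In the lower of the 2 late means, Asa5G05839.1 stood at 65786 FPKM, Asa1G00695.1 at 18050 FPKM, Asa1G00702.1 at 5843 FPKM and Asa3G05884.1 at 3480 FPKM. The next, Asa5G01655.1, reached 227 FPKM, and Asa1G05741.1, the lowest, 10.3 FPKM. Of the summed FPKM of a library, these 28 genes took 0.00343% ± 0.00038 (SD, n = 3) at 192 days and 0.0255% ± 0.00479 at 197 days. The share was 0.476% ± 0.0361 by 202 days, 0.474% ± 0.351 by 207 days and 1.72% ± 0.294 by 212 days. Bulbs of 217 days gave 1.98% ± 1.52, those of 222 days 8.13% ± 2.12 and those of 227 days 8.21% ± 0.746. The 3 most abundant members made up 7.70% ± 2.14 at 222 days and 7.78% ± 0.878 at 227 days, and the other 25 together 0.429% ± 0.0721 and 0.434% ± 0.139.

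Outside the bulb the flower carried the largest share. The members held 6.66% ± 1.28 (SD, n = 3) of the summed FPKM in flowers, against 0.436% ± 0.097 in leaves, 0.389% ± 0.18 in pseudostems, 0.117% ± 0.0262 in sprouts, 0.0582% ± 0.00618 in roots and 0.0139% ± 0.0033 in buds. In flowers the 3 most abundant members gave 5.89% ± 1.26 and the other 25 gave 0.776% ± 0.105. In leaves the order was turned: the 3 most abundant members held 9.46e-05% and the other 25 held 0.436%.

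**Figure D1:**
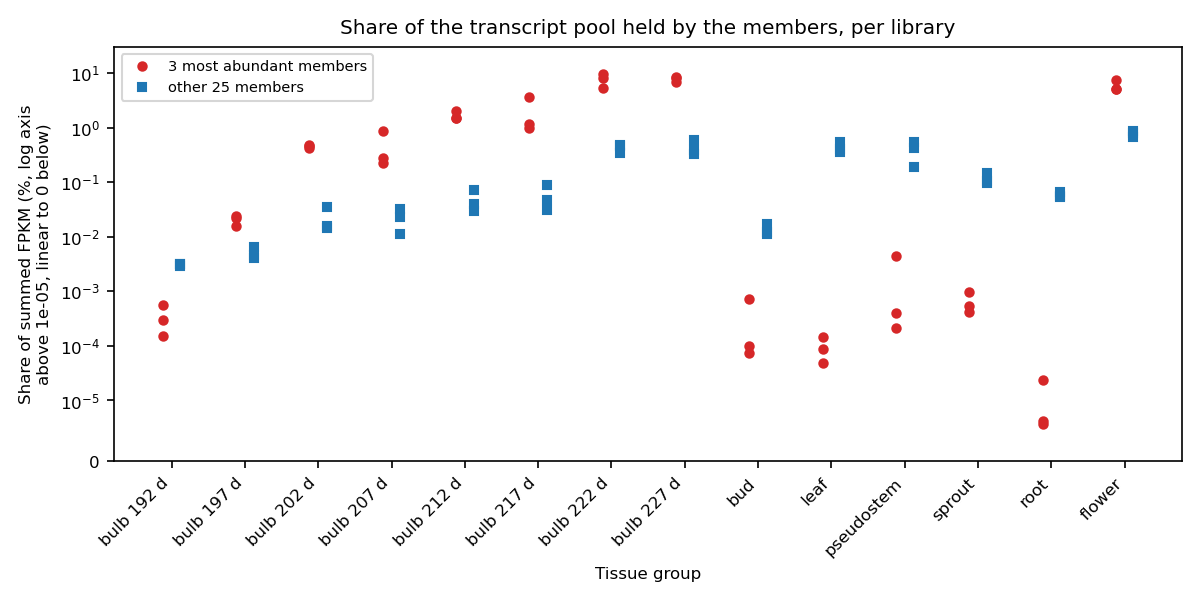
Share of the summed FPKM of each library (percent, log axis above 1e-05 and linear to 0 below it) held by the 3 most abundant members (circles) and by the other 25 (squares), for 3 libraries in each of 14 groups. The 3 most abundant members lie between 5.13% and 9.61% in all libraries of flowers and of bulbs of 222 and 227 days, and at no more than 0.00443% in any library of the 5 other tissues.

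Of the most abundant members, Asa5G05839.1 was measured at 0.868, 1.46 and 5.74 FPKM in the 3 libraries of 192 days, at 169, 253 and 229 FPKM at 197 days, and at 4329, 4497 and 4286 FPKM at 202 days. Its libraries then gave 2103, 2359 and 7033 FPKM at 207 days, 12924, 16939 and 12596 FPKM at 212 days, and 7789, 10047 and 29731 FPKM at 217 days. At 222 days they gave 82969, 45018 and 69372 FPKM and at 227 days 68583, 67274 and 65976 FPKM. All 6 late libraries lay above all earlier ones, and the group means were already 14153 FPKM at 212 days, so that this gene was one of the late-onset set by its last step and not by a late first appearance.

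Between 202 and 207 days the mean of Asa5G05839.1 fell, and between 222 and 227 days it rose slightly. Asa1G00695.1 made a similar climb at a lower level, but its means moved the other way at both of these steps. From 192 to 217 days its means were 0.925, 26.5, 524, 989, 3934 and 4645 FPKM. The late libraries held 25814, 15169 and 22982 FPKM at 222 days and 22943, 7080 and 24128 FPKM at 227 days; the low value is the library of 227 days that stood apart. Asa1G00702.1 had means of 0.389, 11.5, 230, 401, 1415 and 1510 FPKM from 192 to 217 days. It then stood at 5843 FPKM ± 1298 (SD, n = 3) at 222 days and 7784 FPKM ± 2602 at 227 days, and here the same library was the highest of its age, at 10714 FPKM.

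Asa3G05884.1, the fourth by level, was present throughout. Its mean was 18.2 FPKM ± 3.67 (SD, n = 3) at 192 days and 323 FPKM ± 196 at 212 days. At 217 days the libraries gave 147, 161 and 420 FPKM, then 2576, 4741 and 3123 FPKM at 222 days and 3185, 6043 and 2555 FPKM at 227 days. Its ratio of late to highest early mean was 10.8, the third largest of the set, and the lowest of its late libraries was above the highest early one, at 542 FPKM.

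Not all members of the "late-onset" set first appeared late. By group means, 18 members first reached 10 FPKM at 222 days, and 19 stayed under 10 FPKM at all ages up to 212 days. The rule limited both counts beforehand: at a 4-fold ratio, a member with a low late mean could not reach 10 FPKM by 212 days. They therefore do not measure how well the label fits. A mean of 1 FPKM was reached by 4 members in the youngest bulbs, and first by 3 more at 197, 11 at 202, 3 at 207, 6 at 212 and 1 at 217 days. The highest mean before 217 days fell at 212 days in 19 members, at 207 days in 5 and at 202 days in 4. At 212 days 15 members were at 10 or more times their 192-day mean, and another 8 had no read at 192 days and some by 212 days. In 15 members the 6 late libraries all lay above the 15 libraries of 192 to 212 days, a pattern held by 0.472% of the 43872 genes above 0 in these libraries; since the rule used this contrast, nothing is read from that count.

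**Figure D2:**
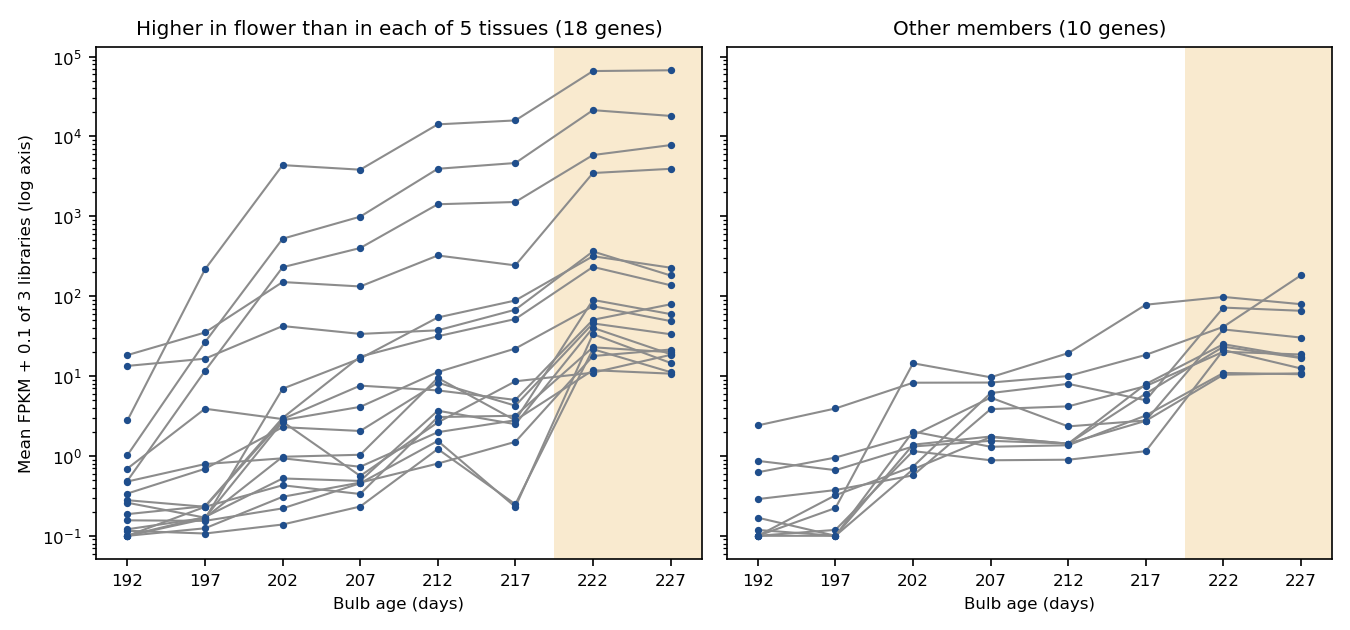
Mean FPKM + 0.1 of 3 libraries (log axis) against bulb age in days, 1 line per member; the shaded ages are the 2 late ones used by the rule, and the panels split the members by whether they were called higher in flowers than in each of 5 other tissues (18 genes, left) or not (10 genes, right). The most abundant lines of the left panel climb from 192 days on, through 14153 FPKM at 212 days for Asa5G05839.1. Most lines of both panels pass 10 FPKM only at 222 days, which the rule forces in part.

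The largest ratios belonged to genes that were close to silent before. Asa6G01397.1 had a ratio of 25.2: it had no read in the 3 libraries of 192 days, which allows up to 0.235 FPKM (3 reads per library, counting error only), and its highest mean up to 212 days was 0.702 FPKM. Its late libraries gave 15.5, 33.1 and 4.48 FPKM at 222 days and 9.01, 52.4 and 2.72 FPKM at 227 days, all above every earlier library but widely spread among themselves. Asa1G00704.1, with a ratio of 11.8, went from a mean of 1.05 FPKM at 202 days and 0.797 FPKM at 212 days to 19.7, 17 and 26.5 FPKM at 222 days, and to 13.7, 5.06 and 18.3 FPKM at 227 days.

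At the other edge, Asa0G03515.1 entered with a ratio of 4.08 and Asa4G03079.1 with 4.12, and Asa5G01428.1 (ratio 3.82, lower late mean 169 FPKM) and Asa1G01682.1 (ratio 3.8, 10.2 FPKM) fell just outside. By level, Asa1G05741.1 (10.3 FPKM) and Asa3G05154.1 (10.4 FPKM) were just inside, and Asa8G01592.1 (9.98 FPKM) and Asa6G05437.1 (9.87 FPKM) just outside. For Asa0G03515.1 a single library made the 222-day mean: its 3 libraries held 118, 11.8 and 6.39 FPKM, the last 2 of them within the 3.13 to 14.6 FPKM of the 212-day libraries. At 227 days it was at 26.4, 43.4 and 30.1 FPKM. Without that 222-day library the set shrank from 28 to 18 genes, all of them among the 28.

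Between the 2 late ages 20 members had the higher mean at 222 days and 8 at 227 days. The largest falls were those of Asa0G05989.1, to 0.434 times its 222-day mean, and of Asa1G05123.1, to 0.466 times. Asa1G05123.1 was measured at 23.5, 52 and 44.6 FPKM at 222 days and at 28.9, 0 and 27.1 FPKM at 227 days, and without the library of 227 days that stood apart its ratio was 0.699. Asa0G05989.1 scattered at both ages, with 66, 0.458 and 33.7 FPKM and then 40.6, 0 and 2.89 FPKM. Asa0G04835.1 did the same in the same libraries, with 44.2, 0.478 and 20.1 FPKM and then 31.3, 0 and 1.98 FPKM. The largest rise was that of Asa3G07330.1, to 4.42 times, and it too lay in replicate 2: the libraries of 227 days gave 12.4, 459 and 75.9 FPKM after 30.5, 59.1 and 34.1 FPKM. Asa3G05981.1 rose to 1.68 times, from 27, 3.4 and 2.38 FPKM to 2.23, 43.1 and 9.63 FPKM, and 2 of its 222-day libraries were below its highest library up to 212 days, at 3.87 FPKM. None of these differences was tested, and in each of these genes the libraries of the 2 ages overlapped.

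Bulbs of 217 days lay nearer to the earlier bulbs than to the later ones. On a scale of log2(FPKM + 1) that runs from 0 at the highest mean of 192 to 212 days to 1 at the lower late mean, the median member stood at 0.13 at 217 days. The medians of the 3 libraries were -0.33, -0.17 and 0.29, an SD of 0.319. The 217-day mean was under 0.5 on this scale in 24 of 28 members, below the highest earlier mean in 10, and at or above the lower late mean in 0. Replicate 3 carried the level: without it the median position was -0.24, below the earlier maximum.

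Asa4G03079.1 had come farthest by 217 days, at a position of 0.99, with 53, 150 and 31.1 FPKM against 16.9, 21.7 and 19.2 FPKM at 212 days and 142, 69.7 and 81.6 FPKM at 222 days. Its 217-day and 222-day libraries overlapped. Asa3G05981.1 stood at 0.81, but over libraries of 0.438, 6.38 and 18.7 FPKM. The lowest positions were those of Asa8G00609.1, at -0.59, and Asa0G03515.1, at -0.43. Asa8G00609.1 gave 10.5, 12.8 and 4.8 FPKM at 212 days, 2.87, 1.71 and 3.48 FPKM at 217 days and 54.5, 102 and 113 FPKM at 222 days: the 217-day libraries were below both neighbours, without overlap.

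**Figure D3:**
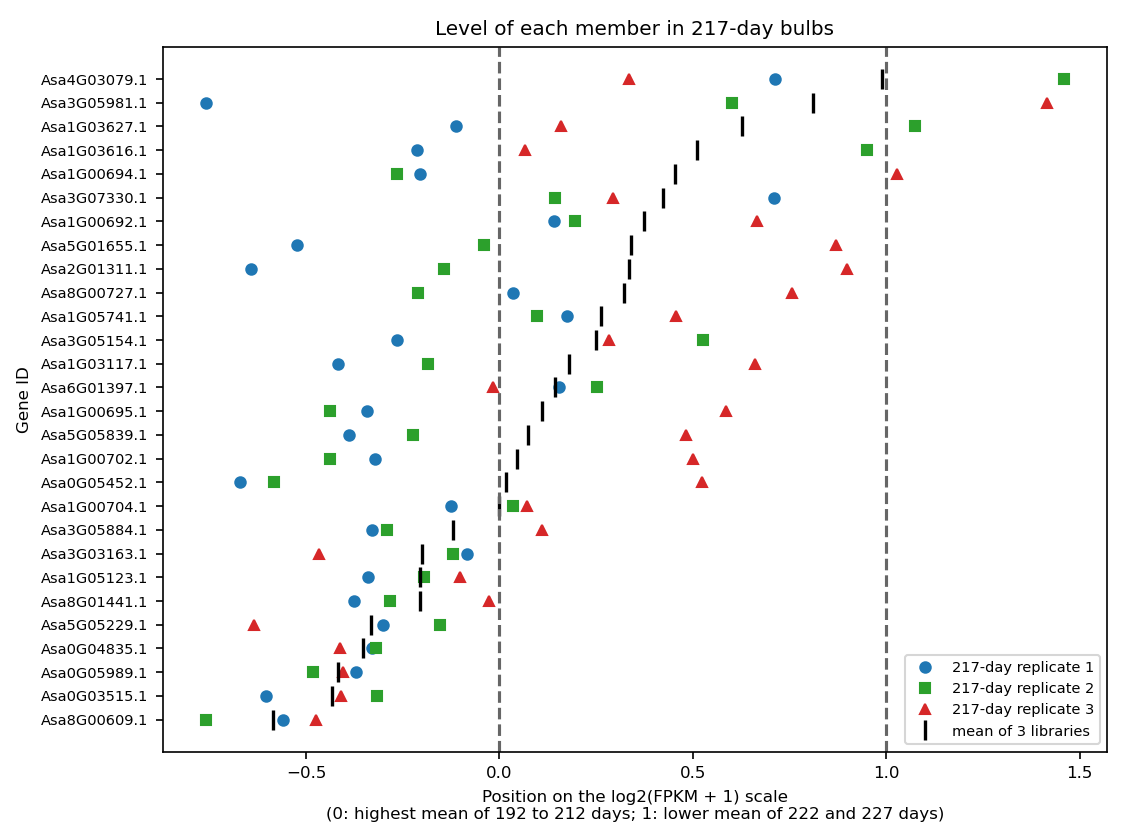
Level of each member in the 3 libraries of 217-day bulbs (symbols) and in their mean (bar), on a log2(FPKM + 1) scale set to 0 at the highest mean of 192 to 212 days and to 1 at the lower mean of 222 and 227 days. Most bars lie under 0.5, and replicate 3 (triangles) is the highest of the 3 libraries in 17 members.

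The flower was the highest of the 6 other tissues in 19 members, leaf in 5, sprout in 2, root in 1 and pseudostem in 1. In 17 members the flower mean was at or above the lower late bulb mean, and in 12 it was the highest of all 14 groups. It was more than 2 times the lower late mean in 13 members, within 2-fold of it in 9 and below that in 6, from 0.115 times in Asa3G03163.1 to 18.1 times in Asa0G03515.1. A mean of at least 10 FPKM was reached by 23 members in flowers, 11 in pseudostems, 10 in leaves, 10 in roots, 9 in sprouts and 4 in buds. The median member stood at 110 FPKM in flowers, 40.6 FPKM in 222-day bulbs, 31.8 FPKM in 227-day bulbs and between 0.639 FPKM (buds) and 4.34 FPKM (pseudostems) in the 5 other tissues. Over all genes above 0 in any group, the medians were 1.93 FPKM in flowers, 2.05 and 2.08 FPKM in these bulbs, 3.35 FPKM in buds and 2.65 FPKM in pseudostems. These counts are a description of all 28 members, without shares over all genes. They include Asa0G05989.1 and Asa0G04835.1, which pass the test filter below only through flowers.

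**Figure D4:**
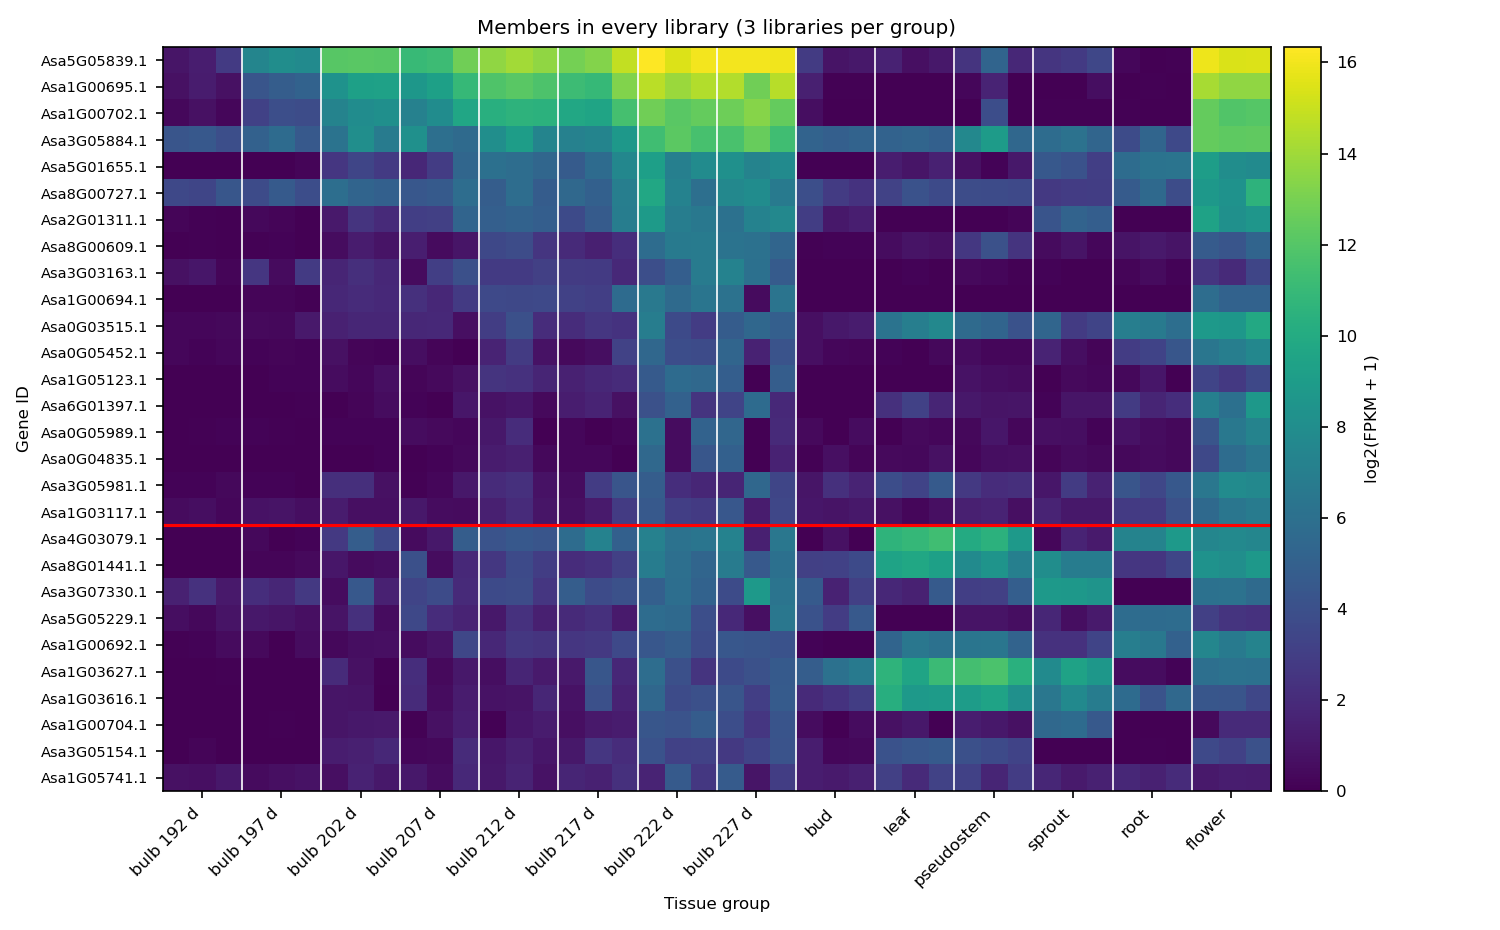
log2(FPKM + 1) (colour) of the 28 members (rows) in all 42 libraries (columns, 3 per group); the red line separates the 18 members called higher in flowers than in each of 5 other tissues, above it, from the other 10. The upper rows are bright in flowers and in bulbs of 222 and 227 days and dark in buds, and 4 of the lower rows are bright in leaves and pseudostems.

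These differences were tested with limma on log2(FPKM + 1) over the 21 libraries of flowers, 217-day bulbs, buds, leaves, pseudostems, sprouts and roots, none of which chose the members. A call needed a Benjamini-Hochberg adjusted p below 0.05 over all 33517 genes tested and a log2 difference of at least 1. All 28 members were tested, but Asa0G05989.1 and Asa0G04835.1 passed the filter (1 FPKM in 3 libraries) only through flowers and so had to differ there. The counts with flowers are therefore given over the other 26, beside the 33299 genes that pass the filter without the flower libraries; over all 28 members each count of higher flower levels is larger by these 2. Against buds, 23 of 26 members were higher in flowers, where 8.13% of these genes were, and 1 was lower, where 25.7% of the genes were. Against leaves 19 members were higher (13.3% of genes) and 5 lower (17.6%). Against pseudostems 19 were higher (7.91% of genes) and 4 lower (17.4%), and against sprouts 21 were higher (8.04%) and 4 lower (18%). Against roots 21 were higher (13.3%) and 1 lower (15.4%).

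The median log2 difference of the 26 members, flower minus tissue, was 5.57 against buds, 3.36 against leaves, 3.34 against pseudostems, 4.49 against sprouts and 3.51 against roots. Over the 33299 genes it was -0.48, -0.04, -0.23, -0.29 and 0.06. Over all 28 the medians were 5.55, 3.72, 4.42, 4.70 and 3.69, and setting a group with no read of a member to 3 reads per library moved only the one against buds, to 5.51. The 5 comparisons share the 3 flower libraries and are not independent of each other.

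In 16 of the 26 members the flower was called higher than each of the 5 tissues, against 1.31% (437) of these genes. The 2 that pass the filter only through flowers bring the group to 18. Without any 1 of the flower libraries these 2 were no longer tested and the count was again 16 of 26. Among the 18 are the 4 most abundant members. Asa5G05839.1 was measured at 60986, 43442 and 44807 FPKM in flowers, at 4.42, 38 and 2.56 FPKM in pseudostems, the next tissue, and at 0.213, 0 and 0.0815 FPKM in roots. The flower libraries overlapped with those of 222 days and lay below those of 227 days, and the log2 difference from pseudostems was 12.40 ± 0.68 (SE), with a limma adjusted p of 1.85e-10. Asa1G00695.1 gave 18743, 12610 and 12788 FPKM in flowers and 0.207, 2.15 and 0 FPKM in pseudostems, and the log2 difference was 13.18 ± 0.50 (limma, adjusted p = 1.62e-12). In leaves it had no read in 3 libraries, which allows up to 0.513 FPKM. Asa1G00702.1 gave 5830, 3793 and 4110 FPKM in flowers and 0, 13.5 and 0 FPKM in pseudostems.

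Asa3G05884.1 reached 5796, 4993 and 5110 FPKM in flowers and was detected in every library of every tissue. It stood at 201, 501 and 43.9 FPKM in pseudostems, at 35.7, 29.6 and 35.1 FPKM in buds and at 12.4, 39.5 and 11 FPKM in roots. Flowers exceeded pseudostems by 5.0 ± 0.61 on the log2 scale (limma adjusted p = 3.60e-06), and the groups did not overlap. It was the second highest member in buds.

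Asa3G05884.1 and 10 more of the 18 had flower means above those of every bulb age, 5 of which follow here. Asa0G03515.1 gave 455, 408 and 943 FPKM in flowers, where its lower late bulb mean was 33.3 FPKM. It was also present in leaves, at 74.1, 127 and 193 FPKM, and in roots, at 124, 107 and 59.3 FPKM, and flowers exceeded leaves by 2.19 ± 0.54 on the log2 scale (limma adjusted p = 0.00265). Asa6G01397.1 gave 129, 65.2 and 421 FPKM in flowers and 3.89, 7.97 and 2.2 FPKM in leaves, the next tissue. Asa3G05981.1 gave 89, 238 and 194 FPKM in flowers against 18.8, 9.96 and 21.2 FPKM in roots. Asa0G05452.1 gave 83.5, 124 and 187 FPKM in flowers and 6.64, 8.8 and 19.8 FPKM in roots. Asa1G03117.1 stood beside it with 46.9, 84 and 113 FPKM in flowers and 5.7, 6.21 and 15.7 FPKM in roots. In each of these 5 genes the 3 flower libraries lay above every library of the 5 other tissues.

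Asa0G05989.1 and Asa0G04835.1, which varied together among the late bulb libraries, did so among flowers as well. The first gave 18.5, 93.4 and 155 FPKM and the second 10.8, 53.1 and 82.7 FPKM, and both stayed under 1 FPKM in all 15 libraries of the 5 other tissues. Of the rest of the 18 there were Asa5G01655.1 (343 FPKM ± 175 in flowers and 67.3 ± 12.5 in roots, SD, n = 3), Asa8G00727.1 (759 ± 677 and, in roots, 28.7 ± 17.8) and Asa2G01311.1 (456 ± 203 and, in sprouts, 27.1 ± 8.61). Replicate 3 of the flowers, at 1538 FPKM, made most of the flower spread of Asa8G00727.1. In bulbs of 222 days that gene gave 875, 152 and 61.2 FPKM, against 57.7 FPKM in its highest library up to 212 days.

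Besides the 3 most abundant members, 4 of the 18 had a flower mean below both late bulb means. Asa8G00609.1 had 24.8, 19.1 and 37.8 FPKM in flowers, under its late means of 89.7 and 59.6 FPKM. Asa3G03163.1 had 4.85, 2.91 and 9.65 FPKM in flowers and 14, 27.9 and 109 FPKM in bulbs of 222 days. Asa1G05123.1 had 9.2, 5.66 and 10.8 FPKM in flowers. Both of these had the lowest means over the 6 other tissues of all members: Asa3G03163.1 had no read in buds (up to 0.338 FPKM) and Asa1G05123.1 none in buds (up to 0.918 FPKM) or leaves (up to 1.81 FPKM). Asa1G00694.1 had 56.6, 34.9 and 34.7 FPKM in flowers. Its late means were 74.8 and 48.7 FPKM, the second over libraries of 69.8, 0.371 and 76 FPKM. It had 336 to 548 reads in each flower library and no read in all 15 libraries of the 5 other tissues, which allows up to 1.28 FPKM in the shallowest of them, a leaf library.

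**Figure D5:**
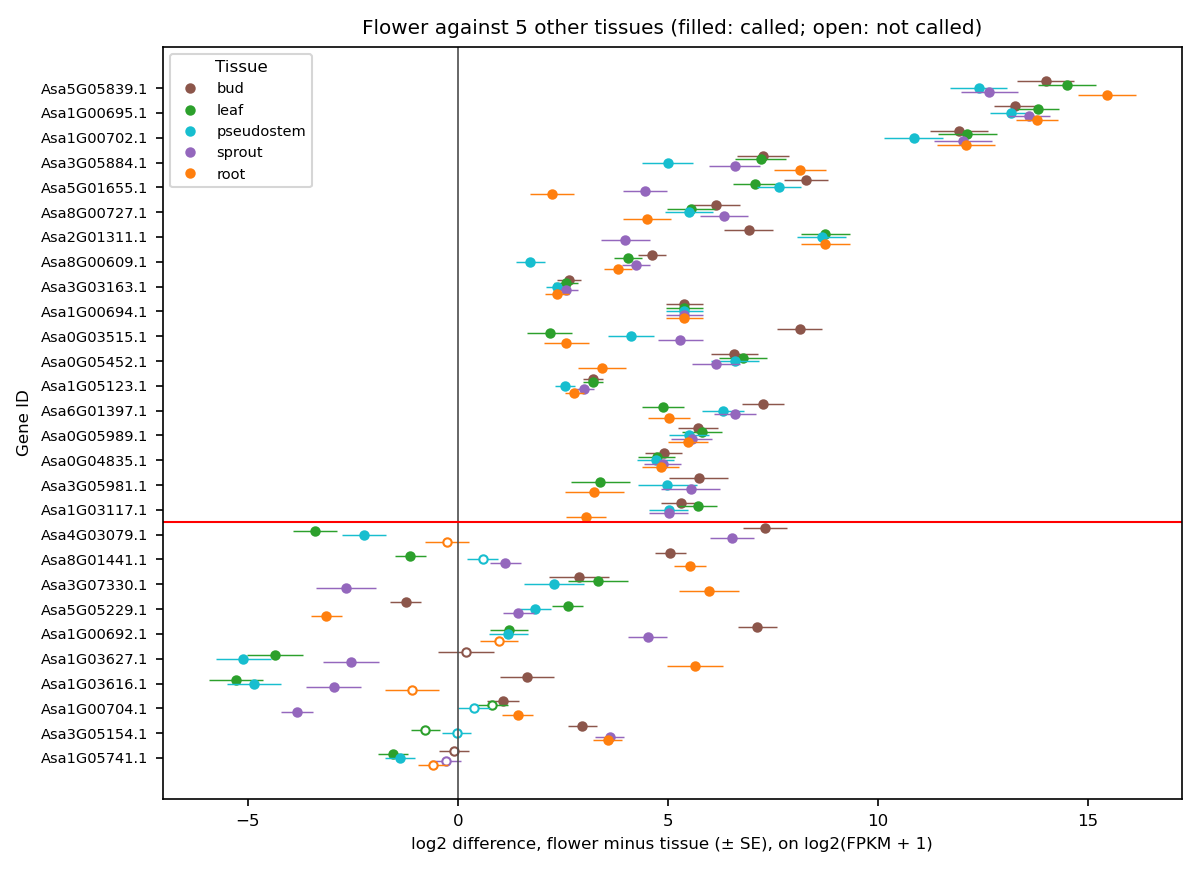
log2 difference, flower minus tissue, on log2(FPKM + 1) with SE, for each member (rows) and each of 5 tissues (colours); filled points were called by limma and open points were not. The 18 rows above the red line have all 5 points filled and to the right of 0. Below it 4 rows have filled leaf and pseudostem points to the left: Asa4G03079.1, Asa1G03627.1, Asa1G03616.1 and Asa1G05741.1.

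The other 10 members had other tissue patterns. In leaves 4 of them had means between 719 and 2031 FPKM, and these 4 were high in pseudostems as well. Asa1G03627.1, the highest member in pseudostems, sprouts and buds, gave 2802, 3345 and 1315 FPKM in pseudostems and 1570, 731 and 2273 FPKM in leaves. It gave a mean of 435 FPKM ± 238 (SD, n = 3) in sprouts, and its libraries held 60.5, 71.2 and 67.9 FPKM in flowers, 27.3, 66.6 and 105 FPKM in buds and at most 0.463 FPKM in roots. The flower-minus-pseudostem difference was -5.10 ± 0.66 on the log2 scale (SE, limma adjusted p = 7.18e-06), and the 227-day bulb mean of 17 FPKM was lower still.

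Asa4G03079.1, the highest member in leaves and roots, gave 1595, 1912 and 2588 FPKM in leaves, 1022, 1462 and 466 FPKM in pseudostems, 157, 161 and 444 FPKM in roots and 182, 203 and 181 FPKM in flowers. The flower-minus-leaf difference was -3.40 ± 0.52 on the log2 scale (limma adjusted p = 2.72e-05). Asa8G01441.1 gave 708, 841 and 632 FPKM in leaves and 322, 269 and 411 FPKM in flowers, and the log2 difference of -1.13 ± 0.37 (limma, adjusted p = 0.0182) was no longer called in 4 of 17 alternatives, over which the adjusted p ran from 0.00276 to 0.232. Asa1G03616.1 gave 1216, 443 and 497 FPKM in leaves, 525, 725 and 291 FPKM in pseudostems and 19.8, 18.8 and 10.2 FPKM in flowers. In all 4 genes every leaf library exceeded every late bulb library.

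Asa3G07330.1 and Asa1G00704.1 were highest in sprouts. The first gave 436, 419 and 351 FPKM there, 68.9, 69.5 and 50 FPKM in flowers and no read in roots (up to 0.917 FPKM). The second gave 44.4, 50.3 and 22.9 FPKM in sprouts and at most 2.88 FPKM in any library of the 5 other tissues outside the bulb. Sprouts exceeded flowers in both, with flower-minus-sprout differences of -2.67 ± 0.71 (limma adjusted p = 0.00583) and -3.83 ± 0.38 (2.37e-07). Asa5G05229.1 was highest in roots, at 53.2, 51.3 and 54.4 FPKM, and had no read in leaves (up to 1.99 FPKM). Its 227-day bulb libraries held 2.63, 0.577 and 87.5 FPKM, so that its late mean at that age rested on replicate 3.

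Asa1G00692.1 was spread over several tissues, with 176, 108 and 159 FPKM in flowers, 126, 90.9 and 32.8 FPKM in roots, 79.2, 84.2 and 35.6 FPKM in pseudostems and 37.8, 89.8 and 68.5 FPKM in leaves. Its flower and root libraries overlapped, and the difference of 0.99 ± 0.46 was not called (limma adjusted p = 0.0884). Asa3G05154.1 was at 16.6, 20.2 and 23.6 FPKM in leaves, at 11.3, 7.77 and 15.9 FPKM in flowers and at a mean of 10.4 FPKM in 227-day bulbs. Asa1G05741.1 stayed low in all tissues, with its highest mean outside the bulb in leaves, at 6.23 FPKM ± 3.01 (SD, n = 3). Its flower mean was 1.31 FPKM, and the flower-minus-leaf difference was -1.54 ± 0.36 on the log2 scale (SE, limma adjusted p = 0.00165). Its late means rested on 1 library at each age, at 23.4 FPKM of 222 days and 24.3 FPKM of 227 days, and its 4 other late libraries held 0.886 to 6.95 FPKM.

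The 217-day bulbs were also compared with flowers and the 5 tissues. Of the 26 members that pass the filter without flowers, 20 were lower in 217-day bulbs than in flowers, where 5.59% of such genes were lower, and 0 were higher, where 8.71% were. The median difference was -2.17, against 0.21 over these genes. Over all 28 members it was -2.62, with 22 lower. The widest gaps were those of Asa0G03515.1 (-6.78 ± 0.54, limma adjusted p = 1.56e-07), with 3.12, 5.03 and 4.32 FPKM in 217-day bulbs, and of Asa6G01397.1 (-6.05 ± 0.50, adjusted p = 2.65e-07), with 1.47, 2.11 and 0.633 FPKM. For the most abundant gene, Asa5G05839.1, the difference was -1.89 ± 0.68 with a limma adjusted p of 0.0485, a call lost in 11 of 17 alternatives, over which the adjusted p ran from 0.0071 to 0.856. Asa1G00702.1 missed the call at -1.85 ± 0.69 (limma adjusted p = 0.0564) and gained it in 5 of 17 alternatives, with adjusted p from 0.00617 to 0.303. For Asa3G03163.1 the difference was -0.14 ± 0.28 (0.775).

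Against the 5 tissues the 217-day bulbs gave mixed results. They were higher than buds in 14 members (7.02% of all genes) and lower in 2 (17%), and higher than leaves in 12 (18.4%) and lower in 7 (15.6%). They were higher than pseudostems in 10 (9.06%) and lower in 8 (13.7%), higher than sprouts in 12 (7.49%) and lower in 6 (11.8%), and higher than roots in 12 (20.5%) and lower in 7 (14.1%). The median differences were 1.31, 1.07, 0.29, 0.61 and 0.46, against -0.25, 0.16, -0.01, -0.03 and 0.28 over all genes; with groups of no reads set to 3 reads per library the medians were 1.18, 0.65, 0.29, 0.61 and 0.27. These comparisons share the 217-day libraries.

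The 217-day bulb was called higher than each of the 5 tissues in 6 members, against 0.71% (238) of the genes tested. They are Asa5G05839.1, Asa1G00695.1, Asa1G00702.1, Asa3G03163.1, Asa1G00694.1 and Asa1G05123.1, and all 6 were among the 18 that were higher in flowers than in each of the 5; 0.315% (105) of the genes that pass the filter without flowers passed both. The 217-day and flower comparisons share the libraries of the 5 tissues. Of these 6 genes, Asa1G05123.1 stood at 1.79, 2.45 and 2.95 FPKM and Asa3G03163.1 at 6.29, 5.83 and 2.66 FPKM in 217-day bulbs, levels of 9 to 105 reads per library.

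Gene length could be recovered as a whole number of bases for each member. It ran from 237 to 1953 bases with a median of 570. The median over the 38950 genes above 0 in at least 10 libraries was 717. Of the 28 lengths 25 were multiples of 3, as were 94.5% of those genes. Those of Asa3G07330.1 (244 bases), Asa3G05154.1 (740) and Asa0G04835.1 (1307) were not. Whether the lengths are coding lengths was not checked. Several members shared a length. Asa1G00695.1 and Asa1G00702.1 were both 921 bases long, as were 48 genes in all, and Asa5G05839.1 was 915 bases long. Asa0G05452.1 and Asa1G03117.1, whose tissue levels ran side by side, were both 1389 bases long, a length of 42 genes, and Asa3G05884.1 and Asa8G00727.1 were both 378 bases long, a length of 122 genes. Whether any of these are near-identical copies between which reads could be divided was not examined, so the split of levels between such pairs is uncertain.

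By ID, 10 of the 28 members carried the prefix Asa1G, which 6627 of the IDs in the table carry, and 0 carried Asa7G, which 6471 carry. Of these 10, 5 carried close numbers: Asa1G00692.1, Asa1G00694.1, Asa1G00695.1, Asa1G00702.1 and Asa1G00704.1. Of the other IDs in that run, 3 had their highest bulb mean at 227 days and were no members. Asa1G00696.1 went from 9.81 FPKM ± 4.10 (SD, n = 3) at 192 days to 5717 ± 700.2 at 212 days, 20612 ± 509 at 222 days and 32918 ± 23121 at 227 days, and stood at 16485 ± 3087 in flowers, a ratio of 3.61. Asa1G00701.1, also 921 bases long, went from 0.0441 FPKM at 192 days to 219 ± 16.2 at 212 days, 818 ± 144 at 222 days and 3409 ± 4290 at 227 days, a ratio of 3.73. Its flower mean was 471 FPKM ± 130. Asa1G00693.1 stayed low in bulbs, with means of 0.0324, 0.314, 0.314 and 3.08 FPKM at 192, 212, 222 and 227 days, and stood at 15.3 FPKM ± 2.13 in flowers. The members of the run differed in their tissues: Asa1G00692.1 was also high in roots, leaves and pseudostems, and Asa1G00704.1 was highest in sprouts. Asa1G03616.1 and Asa1G03627.1, 11 numbers apart, were both leaf and pseudostem genes. Whether close numbers mean neighbouring genes was not checked.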

How the data were processed

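FPKM values for 58219 gene IDs in 42 RNA-seq libraries were deposited by the authors as 1 table; the submitters' processing notes name Bowtie2 and RSEM, with versions, genome build and annotation not given in the sources used here. FPKM is scaled to mapped fragments, so a gene set that takes several percent of a library lowers all other values.

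Columns were matched to samples by title, with 0 left over. For all 45750 genes above 0, the deposited FPKM values were whole multiples of 1 step (tolerance 0.001 reads). This gave whole reads and, up to a tolerance of 0.05 bases, gene lengths. Of the lengths 94.5% were multiples of 3, as coding lengths would be, but what they span was not checked. The listed genes held 90.4% to 95.1% of the mapped total. No replicate pair agreed within sampling noise.

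Members followed the stated rule on group means. The members and lists were chosen with earlier results of these data known. Genes were named by fixed extremes: the highest late means, the largest and smallest ratios, the values next to each limit, the highest and lowest 217-day positions, the largest differences between flowers and 217-day bulbs, the 2 highest members in each tissue, the 2 lowest over the tissues, and the largest changes from 222 to 227 days (0.1 FPKM was added when ranking ratios). This named 16 members; the other 12, and the neighbours by ID number, were named after their values were seen. Gene lists by function could not be used, since IDs are not paired with products.

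Differences were tested with limma 3.58.1 in R 4.3.3 on log2(FPKM + 1) with a variance trend, for genes at or above 1 FPKM in 3 or more of 21 libraries in 7 groups; this scale understates changes of genes near 1 FPKM. The tests were tested on simulated data first. Python 3.11.15 with NumPy 2.4.6 and pandas 2.3.3 did the rest. Limits on 0 reads are 3 reads per library and cover counting error only. Alternatives were other limits of the rule, medians, other scalings, pseudocounts and filters, separate fits, a replicate block, each library left out and, added after seeing the data, voom on the recovered reads and scaling without the members; the 2 counts over 5 tissues, and the counts over genes that pass the filter without flowers, were also added then. Same-numbered libraries deviated together (r above 0.1) in 11 of 45 pairs, with a median r of 0.0016, so replicate numbers were not taken as pairs.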

Additional observations from a re-analysis of the deposited data

How the results depend on the processing

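Which genes are members depends on the limits, the scaling and single libraries. The set of 28 became 52 genes at a ratio of 3, 12 at a ratio of 6, 8 at a ratio of 8, 15 at a minimum of 20 FPKM, 46 under median-of-ratios scaling and 51 under quantile normalization. Quantile normalization kept 25 of the 28 and lost the most abundant members, Asa5G05839.1, Asa1G00695.1 and Asa1G00702.1. When each library was scaled to the same FPKM sum (TPM), the set held 21 genes, all among the 28, and lacked Asa1G00702.1. With 1 of the 21 bulb libraries left out it ran from 18 (without replicate 1 of 222 days) to 36 (without replicate 2 of 212 days), and 5 members were never lost; without replicate 2 of 227 days, the library that stood apart, it held 34 genes, 24 of them shared. Group medians gave 24 genes with 15 shared. The number of members called higher in flowers than in each of 5 tissues was 16 of 26 without any 1 flower library, where the 2 members that pass the filter only through flowers were not tested, and 18 or 19 in the other alternatives, with these 2 counted.

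The 1 member lower in flowers than in buds became 0 under median-of-ratios scaling and under quantile normalization, and 0 to 1 with a library left out. The median 217-day position ran from -0.24 to 0.22 with a 217-day library left out. Median-of-ratios scaling moved the median difference of all genes, flower minus bud, from -0.48 to -0.05 and that of the members from 5.55 to 5.84. With a replicate block, 22 of 28 members were lower in 217-day bulbs than in flowers and 23 higher in flowers than in roots, as without it. Members higher in flowers went from 21 to 20 of 28 against leaves, and likewise against pseudostems. All genes higher in flowers went from 4538 to 4509 against leaves and from 2746 to 2699 against pseudostems. Members higher in 217-day bulbs than in leaves went from 12 to 13, where all genes went from 6161 to 6111. Members lower in 217-day bulbs than in sprouts went from 6 to 5, where all genes went from 3963 to 3921. Buds carry other numbers and had no such fit. The replicate block also ended the call of Asa5G05839.1 in 217-day bulbs against flowers (limma adjusted p = 0.0577). The 22 of 28 members lower in 217-day bulbs than in flowers became 19 with a pseudocount of 0.1 and 25 under median-of-ratios scaling. Over the 33517 genes the count of 1962 became 2267 and 2685.

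Of 728 alternative values of 43 single-gene tests, 700 kept direction and call, 18 lost the call, 8 gained it and 2 reversed: Asa3G03163.1, 217-day bulbs minus flowers, went from -0.14 to 0.18 without replicate 3 of the 217-day bulbs and to 0.25 without replicate 3 of the flowers, with no call in any case. The causes were not tested. Depth limits the low members: at 9 to 18 reads per library, as for Asa1G05123.1 in 217-day bulbs, small differences could not be detected.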
